A study of Mus musculus with 20 samples.

Results

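The unfolded protein response and the integrated stress response are described here by 35 genes, chosen by symbol from the known outputs and regulators of both pathways, of 14906 genes tested in total and polysomal RNA of NSC-34 cells. All 35 had counts there and passed the filter on low counts, and 30 had at least 1 listed 3′ end among the 9621 genes of the 3′ end table. Calr, Pdia3, Pdia6, Chac1 and Derl1 had none. The genes were grouped by role into 15 chaperones and folding enzymes of the endoplasmic reticulum (ER), 6 genes of ER-associated degradation, 7 stress sensors and transcription factors, and 7 targets of the integrated stress response, the subunits of the eIF2 phosphatase included. Members and groups were chosen with earlier results of these data known.

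NSC-34 is a mouse hybrid line of neuroblastoma and embryonic spinal cord cells that serves as a motor neuron model. In this study it stably carried the tetracycline repressor (Trex cells) and, for HuD, an inducible lentiviral construct under a CMV/TO promoter that encodes His-HA tagged human HuD (ELAVL4), a neuronal RNA-binding protein. RNA-Seq of total RNA and POL-Seq of polysomal RNA had 2 control and 2 HuD libraries each, and 3′ end sequencing and CRAC, a crosslinking and purification assay for the sites of a tagged protein, had 3 of each. The labels give 2 µg/ml tetracycline for 48 h to the HuD cells of the first 3 assays. For CRAC they give 10 µg/ml for 24 h to both groups, as do the study's methods on CRAC. The study's results instead state doxycycline at 2 µg/ml for 48 h for CRAC, and its methods name doxycycline for inducing the cell lines. This conflict in drug, dose and time cannot be settled here. The labels do not state whether the control cells of the first 3 assays received the drug. In these assays a difference due to the drug therefore cannot be told apart from one due to HuD. The study describes the replicates of the first 3 assays as biological, but neither it nor the labels say how their cultures were separated, and the p-values measure the spread between these libraries. A lower level in these bulk samples can come from fewer expressing cells or from less RNA per cell, which cannot be told apart here.

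The ER folds secreted and membrane proteins, and unfolded protein in its lumen activates IRE1 (Ern1), ATF6 (Atf6) and PERK. IRE1 splices the Xbp1 mRNA and ATF6 is cleaved to a transcription factor, and both raise the transcription of chaperones and of degradation factors through ER stress response elements. PERK and the other kinases of the integrated stress response phosphorylate eIF2, which lowers general translation and allows translation of Atf4, whose protein activates amino acid, redox and death genes such as Asns, Trib3, Chac1 and Ddit3.

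The promoters were searched for the elements of these pathways, and matches are shown because the fitted differences of chaperones and stress targets had opposite signs in the libraries described below. In the RefSeq sequences (GRCm38.p6, 250 bases before to 50 after each annotated start), 30 of the 35 members had an entry. The ER stress response element (ERSE), searched as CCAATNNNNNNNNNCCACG on both strands, was present in 8 of these 30, against 0.137% of 27025 genes. The 8 were Hspa5, Creld2, Hsp90b1 (with 2 matches, of which 1 is printed), Calr, Canx, Pdia6, Dnajc3 and Syvn1. The related ERSE-II, searched as ATTGGNCCACG, was present in 2 (Dnajb11 and Herpud1), against 0.0444% of genes, and the element bound by ATF4 and its C/EBP partners, searched as TGATGNAA, in 5 (Herpud1, Atf3, Trib3, Chac1 and Asns), against 4.51% of genes. The members were chosen as known outputs and regulators of these pathways, so their excess over all genes is not an independent result. A match describes letters in the window and not a site in use. Capitals mark the match in the promoter strand's own direction, so that in Calr, Creld2, Atf3 and Chac1 the reverse complement of the element is read:
Hspa5, chr2:34772020-34772048, plus strand: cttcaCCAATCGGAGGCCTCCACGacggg
Canx, chr11:50325795-50325823, minus strand: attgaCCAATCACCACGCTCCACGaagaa
Calr, chr8:84847070-84847098, minus strand: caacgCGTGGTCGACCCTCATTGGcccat
Creld2, chr15:88819515-88819543, plus strand: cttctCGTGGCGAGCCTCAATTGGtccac
Hsp90b1, chr10:86705633-86705661, minus strand: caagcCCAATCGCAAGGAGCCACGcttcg
Herpud1 (ERSE-II), chr8:94386372-94386392, plus strand: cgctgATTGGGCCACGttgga
Asns (ATF4 element), chr6:7693220-7693237, minus strand: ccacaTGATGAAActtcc
Atf3 (ATF4 element), chr1:191183431-191183448, minus strand: cgcacTTGCATCAccaag
Chac1 (ATF4 element), chr2:119351044-119351061, plus strand: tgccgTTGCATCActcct

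Levels were first compared between genes in total RNA of control cells, as CPM, counts scaled to library size, per kilobase of annotated exon. The members were abundant, with a median of 43.7 CPM per kb against 5.7 over all genes with an exon length, and 31 of 35 lay above that median. Atf4, the transcription factor of the integrated stress response, was the highest at 297 ± 29.5 CPM per kb (SD, n = 2). It was followed by the lectin chaperone Calr at 253 ± 11.6, the ER HSP90 Hsp90b1 at 201 ± 15.3, the ER HSP70 Hspa5 (BiP) at 166 ± 23.1 and asparagine synthetase Asns at 165 ± 11.8, and Hspa5 and Asns did not differ beyond their spread. The lowest 4 members were the degradation adapter Sel1l at 5.47 ± 0.299, the sensor Ern1 at 5.46 ± 0.0772, Atf3 at 5.23 ± 0.225 and Cebpb at 3.06 CPM per kb. Group medians were 82.5 for the chaperones, 27 for the stress targets, 14.9 for degradation and 13.6 for the sensors and factors.

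Library totals were 21296012 to 36284728 counts in RNA-Seq and POL-Seq, lowest in polysomal control replicate 2, and 12986862 to 15751036 in the 3′ end set. Elavl4, the mouse gene of HuD, measured 78.3 and 97.4 CPM in total control, 237 and 212 in total HuD, 90.3 and 118 in polysomal control, and 243 and 225 in polysomal HuD libraries, higher in every HuD library. At its listed mouse 3′ ends it measured 38.5 to 78.1 CPM in control and 31.4 to 54.6 in HuD libraries, and these ends are those of the endogenous gene, which the transgene need not carry, so they do not check the labels. Of 8 neuronal markers 7 were above 1 CPM in total RNA, and of 6 motor neuron markers 4 were (Isl1, Isl2, Lhx3 and Slc18a3), with Mnx1 not listed and Chat not above 1 CPM. None of the microglial or fibroblast markers was listed.

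Of the 8 RNA-Seq and POL-Seq libraries, polysomal control replicate 2 stood apart for the members. The plot by library of each member relative to its mean shows this as a column in which most chaperones are high and Ddit3, Ddit4, Atf4 and Cebpb are low. In that library the chaperones deviated from their mean over the 8 libraries by a median of 0.29 on the log2 scale, with 13 of 15 above, the sensors and factors by -0.34 and the stress targets by -0.26, while the median over all genes was -0.01. In the other 7 libraries the chaperone median lay between -0.15 and 0.07. Hspa5 measured 676 and 1054 CPM in the 2 polysomal control libraries, and Hsp90b1 828 and 1270.4. Ddit3 measured 134 and 93 CPM there. Values without that library are therefore given beside the polysomal results that it moved most.

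**Figure D1:**
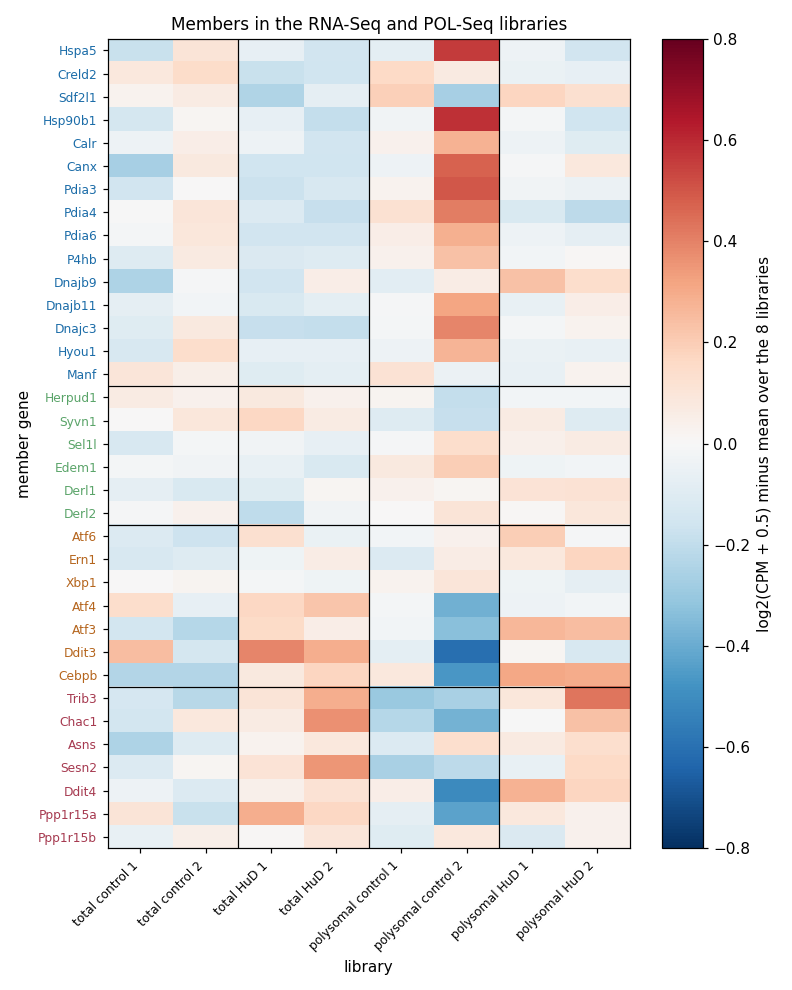
Each row is a member and each column an RNA-Seq or POL-Seq library, and color gives log2(CPM + 0.5) minus the mean over the 8 libraries; gene names are blue for chaperones and folding enzymes, green for degradation, brown for sensors and transcription factors and red for stress targets. Polysomal control 2 is the reddest column for the chaperones (median 0.29), and the stress targets of total RNA are above their mean in all 7 genes in both HuD libraries.

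The comparison of HuD with control cells in total RNA asks whether transcript levels of the pathways differed with HuD. No member passed an adjusted p of 0.05 in edgeR's quasi-likelihood test, and neither did any of the 14906 genes (0%). Elavl4, higher in both HuD libraries, missed this threshold too (log2 difference 1.35 ± 0.15, adjusted p = 0.0866, edgeR). A lack of calls here is therefore not a lack of change. DESeq2 called 1 gene of all, no member. At an unadjusted p under 0.05, Atf3, Trib3 and Sesn2 were higher (background 1.78% of genes) and Creld2 was lower (0.865%). DESeq2 gave 3 higher and 1 lower, against 120 and 55 of 14924 genes. The edgeR fit takes its spread from the polysomal libraries too. Fitted to the total RNA libraries alone, it gave 8 higher and 4 lower, against 367 and 194 of 14811 genes. The number of members at this p depended on which library was left out. Without total HuD replicate 2 the log2 difference went from 0.38 to 0.28 for Trib3 and from 0.29 to 0.16 for Sesn2. That of Creld2 went from -0.29 to -0.30. The signs of the fitted differences divided by role, in groups chosen with earlier results of these data known. Of all genes, 7257 had a difference above 0 and 7649 one below. All 7 stress targets and 6 of 7 sensors and factors had a fitted log2 difference above 0, with medians of 0.25 and 0.18, and 14 of 15 chaperones had one below 0, with a median of -0.09, against 0 over all genes.

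Trib3, a pseudokinase induced by ATF4, measured 50.1 and 47.2 CPM in total control and 59.1 and 67.3 CPM in total HuD libraries. Both HuD libraries lay above both controls, with a log2 difference of 0.38 ± 0.12 (SE; unadjusted p = 0.0102, adjusted p = 1, edgeR). Sesn2, a stress-induced regulator of mTORC1, measured 36.9 and 40.4 CPM in control and 43.1 and 51.1 CPM in HuD libraries (0.29 ± 0.11). Atf3 measured 11.6 and 10.9 CPM in control and 14.4 and 13.4 CPM in HuD libraries (0.30 ± 0.13). Asns, the fifth member by p, measured 429 and 475 CPM in control and 519 and 539.6 CPM in HuD libraries (0.23 ± 0.11). In these 4 genes the groups did not overlap. Creld2, an ER resident folding factor, was the member with the smallest p. It measured 110.2 and 115 CPM in control and 91.6 and 92.8 CPM in HuD libraries, without overlap, a log2 difference of -0.29 ± 0.08 (unadjusted p = 0.00462, adjusted p = 1, edgeR).

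Counted over all members, 11 of 35 were higher in both HuD libraries than in both controls in total RNA, against 15.1% of all genes, and these were 6 of 7 sensors and factors (Atf6, Ern1, Atf4, Atf3, Ddit3 and Cebpb) and 5 of 7 stress targets (Trib3, Asns, Sesn2, Ddit4 and Ppp1r15a). A further 10 were lower without overlap, against 16.7% of genes, among them 7 chaperones (Creld2, Sdf2l1, Pdia4, Pdia6, Dnajb11, Dnajc3 and Manf), the mannosidase-like Edem1, Derl2 and Xbp1. Of these 21, Dnajb11, Edem1 and Xbp1 had a difference smaller than its SE. Atf4 measured 750.1 and 652 CPM in control and 765 and 796 CPM in HuD libraries (0.15 ± 0.13). Ddit3, the death-promoting factor CHOP, measured 168 and 128 CPM in control and 185 and 173 CPM in HuD libraries (0.27 ± 0.17). Ppp1r15a, the inducible eIF2 phosphatase subunit GADD34, measured 49.7 and 40.8 CPM in control and 56.8 and 52 CPM in HuD libraries (0.26 ± 0.13).

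The sensors, Xbp1 and the main chaperone Hspa5 had fitted differences from -0.08 to 0.18. Atf6 measured 128 and 123 CPM in control and 151 and 133 CPM in HuD libraries (0.18 ± 0.10), and Ern1 44.2 and 45.1 against 47.3 and 50.5 CPM (0.13 ± 0.09). Xbp1 measured 195 and 197 CPM in control and 192 and 189.6 CPM in HuD libraries (-0.04 ± 0.08), a gene-level count that does not separate its spliced from its unspliced form. Hspa5 measured 631 and 769 CPM in control and 684 and 644 CPM in HuD libraries (-0.08 ± 0.19), and here the groups overlapped. For the degradation genes the fitted differences ran from -0.13 (Derl2) to 0.07 (Syvn1). Without total control replicate 2 the chaperone median was -0.03, with 10 of 15 below 0, and without total control replicate 1 it was -0.21, with 15 of 15 below 0, while the stress targets stayed 7 of 7 above 0 without any of the 8 libraries.

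**Figure D2:**
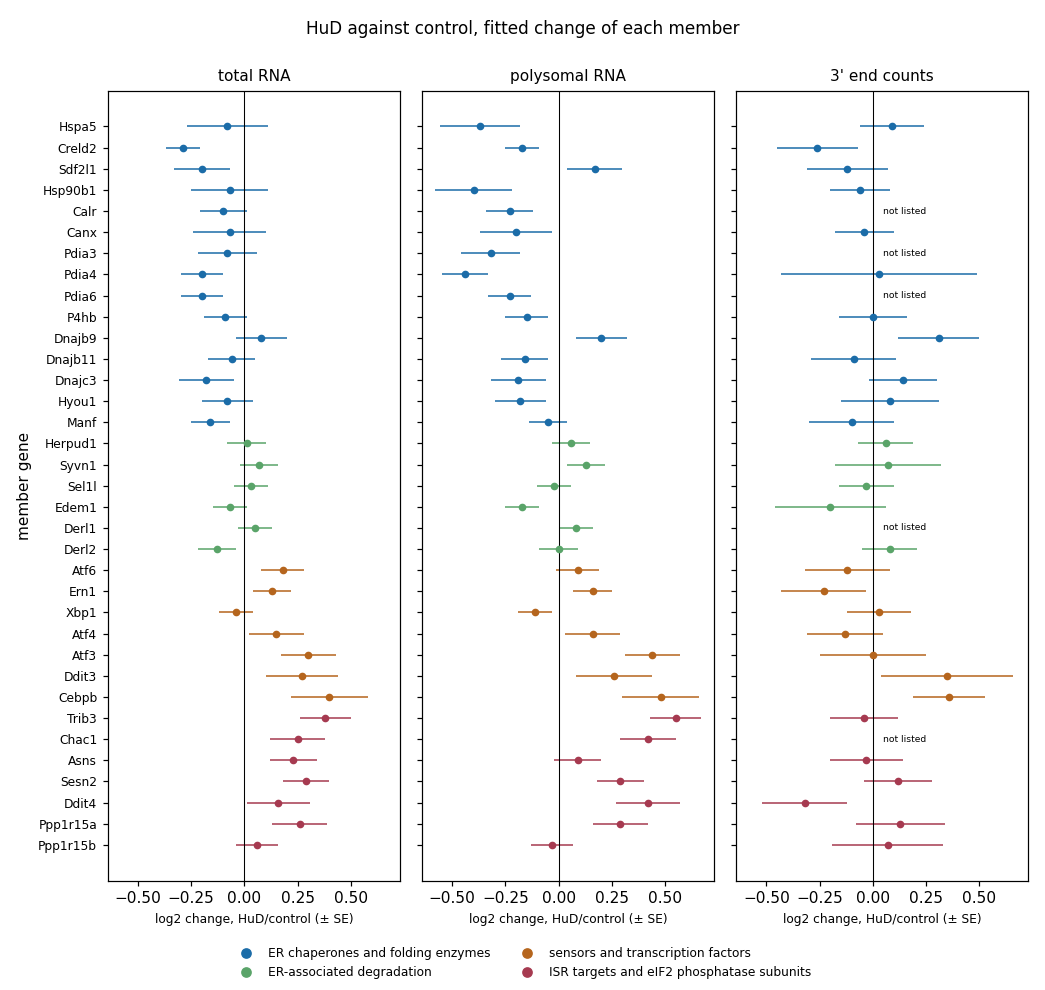
Points give the fitted log2 difference of HuD against control for each member (rows) in total RNA, polysomal RNA and 3′ end counts, with bars of ± 1 SE; 5 members had no listed 3′ end. In total RNA 14 of 15 chaperones lie left of 0 and 7 of 7 stress targets right of it, and in the 3′ end counts the groups' medians are -0.02 and 0.02.

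In polysomal RNA the same comparison asks whether the mRNAs bound to polysomes differed. No member and no gene (0%) passed an adjusted p of 0.05 in edgeR, and DESeq2 called 3 genes of all, no member. Elavl4 missed the edgeR threshold here as well (log2 difference 1.17 ± 0.15, adjusted p = 0.282, edgeR). At an unadjusted p under 0.05, 6 members were higher (Atf3, Cebpb, Trib3, Chac1, Sesn2 and Ddit4, background 2.29%) and 4 were lower (Hsp90b1, Pdia3, Pdia4 and Pdia6, background 1.89%). DESeq2 gave 7 and 6, against 201 and 167 of 14924 genes. Fitted to the polysomal libraries alone, edgeR gave 5 higher and 1 lower, against 207 and 108 of 14639 genes. The number of members at this p depended on which library was left out. With all libraries the fitted medians were -0.19 for the chaperones, 0.16 for the sensors and factors and 0.29 for the stress targets, against -0.01 over all genes. The chaperone median was -0.03 without polysomal control replicate 2 and -0.34 without replicate 1. That of the stress targets was 0.30 without polysomal HuD replicate 2.

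Trib3 had the smallest p. It measured 44.7 and 45.8 CPM in polysomal control and 58.7 and 74.3 CPM in polysomal HuD libraries, without overlap, a log2 difference of 0.55 ± 0.12 (unadjusted p = 0.00106, adjusted p = 0.969, edgeR). Atf3 measured 12.7 and 10.1 CPM in control and 15.6 and 15.4 CPM in HuD libraries (0.44 ± 0.13, and 0.30 ± 0.13 without polysomal control replicate 2). Chac1, a glutathione-degrading enzyme, measured 38.5 and 34.6 CPM in control and 45.1 and 53.1 CPM in HuD libraries (0.42 ± 0.13, and 0.36 ± 0.14 without that library). Ddit4, an mTORC1 inhibitor also known as REDD1, measured 113 and 76.3 CPM in control and 132 and 123 CPM in HuD libraries (0.42 ± 0.15). For Ddit4 the low control is polysomal control replicate 2, and without it the difference was 0.18 ± 0.09. For Trib3 it was 0.58 ± 0.14 without that library, and the stress targets had a median of 0.22, with 7 of 7 above 0.

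Pdia4, a protein disulfide isomerase that forms and rearranges disulfide bonds in the ER, measured 75.8 and 92.5 CPM in polysomal control and 64 and 60.2 CPM in polysomal HuD libraries, without overlap, a log2 difference of -0.44 ± 0.11 (unadjusted p = 0.00233, adjusted p = 0.969, edgeR). Without polysomal control replicate 2 it was -0.28 ± 0.09 (adjusted p = 0.924). Hspa5 and Hsp90b1 moved close to 0 without that library. Hspa5 measured 696 and 643 CPM in the HuD libraries against 676 and 1054 in control (-0.37 ± 0.19), and -0.01 ± 0.12 without it. Hsp90b1 measured 835 and 757 CPM in the HuD libraries against 828 and 1270.4 in control (-0.40 ± 0.18), and -0.05 ± 0.11 without it. The chaperone median moved to -0.03 without it.

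When polysomal control replicate 1 was left out instead, so that replicate 2 was the only polysomal control and was assumed to vary like the other groups, 7 members passed an adjusted p of 0.05 (Hspa5, Hsp90b1, Pdia3 and Pdia4 lower, and Atf3, Cebpb and Ddit4 higher), among 372 genes of all. Counted without overlap between the groups, 10 of 35 members were higher in polysomal HuD libraries (background 14.1%), 5 of them stress targets, and 9 were lower (background 14.6%), 7 of them chaperones.

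**Figure D3:**
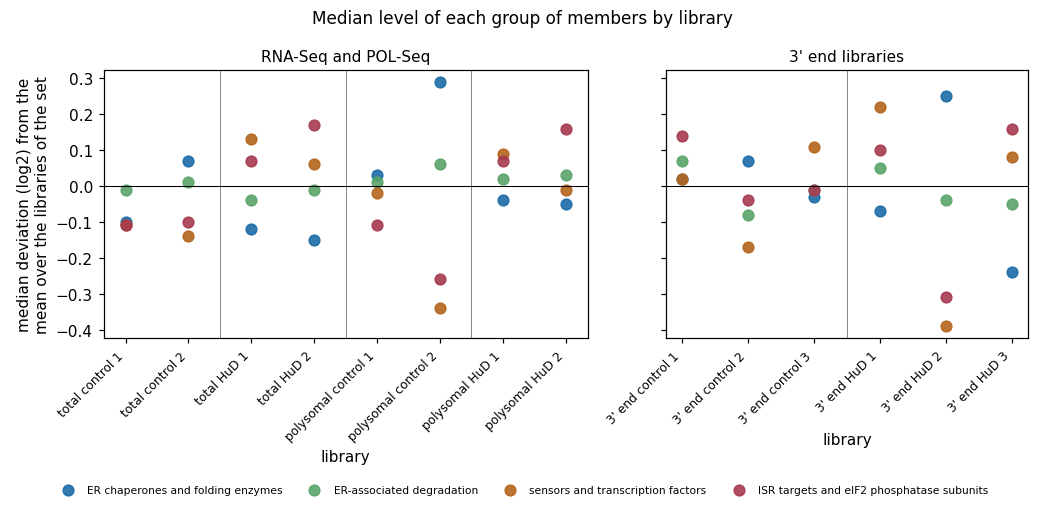
Points give, for each library (x axis), the median over the members of a role of log2(CPM + 0.5) minus the member's mean over the 8 RNA-Seq and POL-Seq or the 6 3′ end libraries. Chaperones are highest in polysomal control 2 (0.29) and 3′ end HuD 2 (0.25), the same 2 libraries in which the sensors and factors are lowest (-0.34 and -0.39).

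The 2 roles thus stood on opposite sides of their means in the libraries with the widest deviations. The 8 members with an ERSE in the promoter had fitted medians of -0.09 in total RNA (7 of 8 below 0) and -0.22 in polysomal RNA (7 of 8 below 0), and the 5 with an ATF4 element had 0.25 and 0.42 (5 of 5 above 0 in each). These are the same libraries as above, and without polysomal control replicate 2 the polysomal medians were -0.03 (5 of 8 below 0) and 0.30 (4 of 5 above 0), with Herpud1 at -0.03. In the 3′ end libraries the medians were 0.01 for 6 members with an ERSE and -0.01 for 4 with an ATF4 element. All of the 8 members with an ERSE except Syvn1 are chaperones, whose median in total RNA was also -0.09. The median of the stress targets there was also 0.25. The motif groups thus largely repeat the division by role in the same libraries, and an effect of the elements was not tested.

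Of 68 further genes of the 2 pathways, 66 were tested in total and polysomal RNA and none passed an adjusted p of 0.05 in a HuD comparison. At an unadjusted p under 0.05, 5 were higher and 0 lower in total RNA (background 1.78% and 0.865% of genes). The 5, chosen for naming after their values were seen, were Ero1l, an ER oxidase, and the stress-induced Nupr1, Stc2, Cth and Gpt2. In polysomal RNA 9 were higher (background 2.29%) and 1, Eif2b3, was lower (background 1.89%), also named after its value was seen. The median log2 difference of the 66 was 0.01 in both fractions. In the 3′ end set 57 were tested, with 1 higher (Ube2j1, background 2.87%) and 1 lower (Gpt2, background 3%).

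Translation efficiency (TE) was taken as the ratio of polysomal to total RNA, and its difference with HuD as the interaction of fraction and HuD. No member and no gene (0%) passed an adjusted p of 0.05 in edgeR or DESeq2, and no member was under an unadjusted p of 0.05, against 0.409% of genes higher and 0.57% lower. The 5 members with the smallest p were Sdf2l1, Pdia4, Hsp90b1, Ddit4 and Pdia3. Sdf2l1, a cofactor of ER chaperones, had same-numbered ratios of 1.12 and 0.793 in control and 1.33 and 1.15 in HuD cells (log2 difference 0.37 ± 0.19, unadjusted p = 0.0825, adjusted p = 1, edgeR). Hsp90b1 had ratios of 1.08 and 1.49 in control and 1.03 and 1.02 in HuD cells (-0.33 ± 0.25), Pdia3 1.13 and 1.41 against 1.1 and 1.06 (-0.24 ± 0.20), and Pdia4 1.09 and 1.24 against 0.991 and 0.985 (-0.24 ± 0.15). Ddit4 had ratios of 1.07 and 0.757 in control and 1.18 and 1.04 in HuD cells (0.27 ± 0.22).

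In these 5 genes the control ratio farthest from the HuD ratios is that of replicate 2. Without polysomal control replicate 2, Hsp90b1 had a log2 difference of 0.01 ± 0.14, Pdia3 of 0.02 ± 0.11, Pdia4 of -0.08 ± 0.11, Ddit4 of 0.02 ± 0.12 and Sdf2l1 of 0.17 ± 0.12. Over the members, 5 had both HuD ratios above both control ratios (background 18.6%) and 11 had them below (background 19.9%), 7 of these chaperones. The chaperone median of -0.10 became 0.07 without polysomal control replicate 2. For Atf4 and Ddit3 the fitted TE difference was 0.01 ± 0.18 and -0.02 ± 0.25, and without that library -0.16 ± 0.13 and -0.25 ± 0.19.

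The comparison of polysomal with total RNA in control cells shows how the mRNAs of the pathways were distributed without HuD induction. No member passed an adjusted p of 0.05 in edgeR, where 0.174% of genes did, all lower. Pdia3 alone was higher at an unadjusted p under 0.05 and none was lower (background 4.45% and 6.25%). DESeq2 gave 3 higher and 1 lower, against 624 and 708 of 14924 genes. Pdia3 was not under that p without polysomal control replicate 2 or total control replicate 1. Without overlap, 8 members were higher in polysomal RNA (background 18.9%) and 5 lower (background 20.1%). The highest fitted log2 ratios belonged to Hsp90b1 (0.37 ± 0.18), Pdia3 (0.35 ± 0.14), Canx (0.32 ± 0.17), Hspa5 (0.30 ± 0.19) and Pdia4 (0.22 ± 0.10), all ER chaperones or folding enzymes. The lowest belonged to Ddit3 (-0.38 ± 0.18), Chac1 (-0.27 ± 0.13), Atf4 (-0.23 ± 0.13), Ppp1r15a (-0.20 ± 0.13) and Sesn2 (-0.19 ± 0.11).

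The mRNAs of Atf4, Ddit3, Chac1 and Ppp1r15a are known to carry upstream open reading frames that restrain translation of their main frame in the absence of eIF2 phosphorylation. Whether these frames bear on the ratios was not tested. In the ratios of same-numbered libraries the low members were low in HuD cells too. Ddit3 had ratios of polysomal to total CPM of 0.798 and 0.726 in control and 0.774 and 0.744 in HuD cells. Atf4 had 0.897 and 0.799 in control and 0.866 and 0.844 in HuD cells. Ppp1r15a had 0.887 and 0.84 in control and 0.863 and 0.913 in HuD cells, and Sesn2 0.899 and 0.853 against 0.886 and 0.875. All 4 ratios were below 1 for 7 of 35 members (Herpud1, Syvn1, Atf4, Ddit3, Chac1, Sesn2 and Ppp1r15a), beside 21.6% of all genes, and above 1 for 16 members, beside 24.5%.

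The high ratios were less even. Hspa5 had 1.07 and 1.37 in control and 1.02 and 0.998 in HuD cells, whereas Canx, the membrane-bound lectin chaperone calnexin, was above 1 in each with 1.17, 1.32, 1.11 and 1.18. Without polysomal control replicate 2 the chaperone median of the control comparison moved from 0.15 to 0.03, and the fitted log2 ratios of Hsp90b1, Pdia3, Canx and Pdia4 were 0.02 ± 0.11, 0.09 ± 0.08, 0.04 ± 0.12 and 0.06 ± 0.09. That of Hspa5 was -0.06 ± 0.12, that of Ddit3 -0.15 ± 0.15, that of Atf4 -0.07 ± 0.10 and that of Ppp1r15a -0.05 ± 0.12, while Chac1 and Sesn2 had -0.21 ± 0.14 and -0.23 ± 0.13. With it as the only polysomal control, 10 members passed an adjusted p of 0.05 (Hspa5, Hsp90b1, Canx, Pdia3, Pdia4, Dnajb11 and Dnajc3 higher, and Atf4, Ddit3 and Ddit4 lower), among 2145 genes of all.

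**Figure D4:**
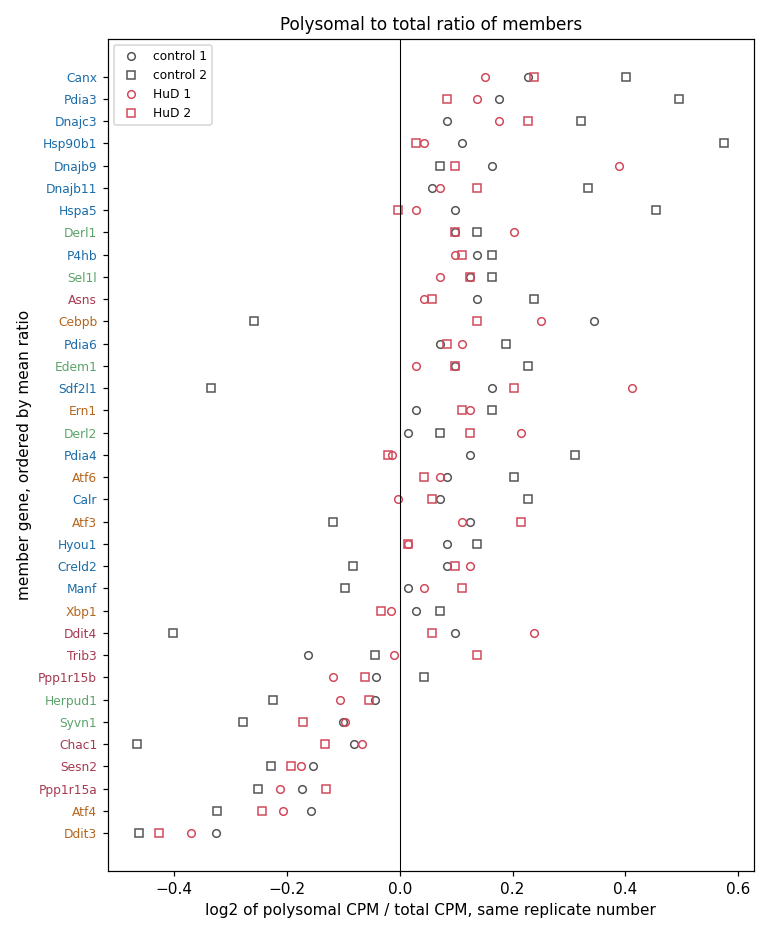
Points give log2 of the polysomal to total CPM ratio of each member (rows, ordered by the mean) for libraries with the same replicate number, gray for control and red for HuD, circles for replicate 1 and squares for replicate 2. Ddit3, Atf4, Ppp1r15a, Sesn2, Chac1, Syvn1 and Herpud1 are left of 0 in all 4, and gray squares lie farthest from 0 for Hsp90b1, Pdia3 and Hspa5.

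The 3′ end libraries, which the labels list apart from those of RNA-Seq and POL-Seq, gave a second measurement of HuD against control for 30 members. No member passed an adjusted p of 0.05 in edgeR, where 0.052% of genes did, and none was under an unadjusted p of 0.05 in edgeR or DESeq2 (background 2.87% higher and 3% lower). Only Dnajb9, a J-domain cochaperone of BiP, did not overlap between the groups. Its CPM was 4.35, 4.58 and 4.76 in control and 6.16, 5.83 and 5.05 in HuD libraries (0.31 ± 0.19), and 6.23% of all genes were higher and 5.81% lower without overlap. The median was -0.02 for the chaperones, 0 for the sensors and factors and 0.02 for the stress targets, against 0 over all genes.

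Cebpb, a C/EBP factor that acts with ATF4, had the smallest p. It measured 13.4, 11.8 and 10.9 CPM in control and 17, 13.2 and 16.3 CPM in HuD 3′ end libraries (0.36 ± 0.17, unadjusted p = 0.0649, adjusted p = 0.88, edgeR). It was higher in the HuD library of each of the 3 numbers, and its differences in total (0.40 ± 0.18) and polysomal RNA (0.48 ± 0.18) had the same sign at a low level, 3.85 to 6.94 CPM, the polysomal one being 0.24 ± 0.16 without polysomal control replicate 2. Ddit4 measured 99.1, 84.5 and 108 CPM in control and 95.8, 56 and 82.5 CPM in HuD libraries (-0.32 ± 0.20), opposite in sign to its fitted values in total and polysomal RNA (0.16 ± 0.15 and 0.42 ± 0.15). Creld2 was lower here as well, with 18, 20.5 and 16.3 CPM in control and 14.2, 18.7 and 12.8 CPM in HuD libraries (-0.26 ± 0.19). Ern1 had a difference of -0.23 ± 0.20.

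The members with the smallest p in total RNA overlapped between the groups at their 3′ ends. Trib3 measured 241, 236 and 270.2 CPM in control and 256, 187 and 284 CPM in HuD libraries (-0.04 ± 0.16). Atf3 measured 6.88, 6.47 and 9.08 CPM in control and 9.88, 5.49 and 7.17 CPM in HuD libraries (0.00 ± 0.25), and Asns had a difference of -0.03 ± 0.17. Hspa5 measured only 24.4 to 27.1 CPM in control and 23.8 to 30.4 in HuD libraries at its 1 listed end (0.09 ± 0.15), a low count beside its 631 to 1054 CPM in the other assays, and the 2 assays count different features.

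Same-numbered 3′ end libraries deviated together, and much of the members' spread followed the number. Relative to the mean of replicates 1 and 3, replicate 2 was lower in both groups for 5 of 7 sensors and factors and for 4 of 6 stress targets, and higher in both for 7 of 12 chaperones. Over all genes 3579 of 9621 were higher in both and 3712 lower in both. Ddit3 was 0.60 lower on the log2 scale in control and 1.28 lower in HuD replicate 2, at 441 and 385 CPM, against 644 to 977 CPM in the other 4 libraries. Atf4 measured 2588 and 1921 CPM in replicate 2 of control and HuD and 2756 to 3260.3 CPM in the other 4. Hyou1, a large ER chaperone, measured 1095 and 1248 CPM in replicate 2 and 704 to 838 CPM in the other 4.

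With the replicate number as a block, Ddit3 (0.27, unadjusted p = 0.0418) and Cebpb (0.36, unadjusted p = 0.0197) were higher and Creld2 (-0.27, unadjusted p = 0.0447) and Ddit4 (-0.34, unadjusted p = 0.00762) lower in edgeR, all with adjusted p of 0.111 to 0.254, so that no member was called. Of all 9621 genes the blocked fit put 8.64% higher and 10.1% lower at this unadjusted p, shares above those of the members (6.67% each), and called 217 (2.26%), against 5 without it.

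Of the 30 members, 21 had 1 listed 3′ end and 9 were tested for a difference in the usage of their ends. With ends within 20 nt merged, Herpud1, P4hb, Hyou1, Syvn1 and Ppp1r15a had no separate ends left to test. None of the 9 was under an unadjusted p of 0.05 in edgeR, and 0.0301% of 3317 genes were called. The smallest p was that of Herpud1, a ubiquitin-like factor of ER-associated degradation (unadjusted p = 0.542, adjusted p = 1). Its listed ends, at chr8:94395358 and chr8:94395377, lie within 20 nt of each other. The latter held 6.48% ± 0.406 of its reads in control and 6.14% ± 0.487 in HuD libraries (SD, n = 3). Sel1l used its main end at chr12:91806043 for 88.5% ± 2.16 of reads in control and 89% ± 0.967 in HuD libraries (unadjusted p = 0.61). Derl2, a derlin of the retrotranslocation channel, divided its reads between ends at chr11:71007442, with 46% ± 5.96 in control and 45.4% ± 4.73 in HuD libraries, and at chr11:71009933 (unadjusted p = 0.841). In these 3 genes the shares differed by less than the spread between replicates.

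CRAC mapped HuD to 11 of the 35 members, in 24 unique windows of 7 or 8 nt. The share of members with a window, 31.4%, compares with 8.61% of the 14906 genes, and the members were more abundant than the median gene, as given above. The authors pooled the replicates, so these values carry no replicate error and no test. No member window had a covering read listed for the pooled control libraries, and 186 of all 2868 windows did. The authors penalized locations with control reads before listing windows, so low control coverage is in part set by that step. Of the 24 windows, 21 were annotated as 3′ UTR only, beside 82.2% of all windows. A further 2 were annotated as coding sequence (Atf6 and 1 of Dnajb9) and 1, in Derl2, as either by transcript. UUU was present in 23 of the 24, and in 95.4% of all 2868 windows. The most covered window of each member is shown in capitals, in the transcript's RNA letters, with 11 nt on each side (GRCm38, coordinates of the window):
Canx, chr11:50295832-50295838, minus strand: gaaugaauugcCGUUUUUauaauaacuuu
Dnajb9, chr12:44206017-44206023, minus strand: uuagaguuauuUCUUUAGuucugcacuuu
Calr, chr8:84842114-84842120, minus strand: acuacaaacaaAAUUUCUauuaaauuaag
Cebpb, chr2:167690359-167690365, plus strand: agaaccuuuucCGUUUCGagcauuaaagu
Ppp1r15b, chr1:133137811-133137817, plus strand: gagcucauggcAGUUUUCcugcuucaacu
Hsp90b1, chr10:86691038-86691044, minus strand: uugaagucauuUCUUUUGagagacuuguu
Atf4, chr15:80257475-80257481, plus strand: gguagucagguGCUUUGUgcuuguacaua
Derl2, chr11:71013174-71013180, minus strand: uugggcacauaUAUUUUUucuuggaagau
Pdia6, chr12:17284334-17284340, plus strand: gaauauuaaugGCUUUUUccauuaaagaa
Herpud1, chr8:94395321-94395327, plus strand: aaccuuugccgAGUUUUCuguucaauaaa
Atf6, chr1:170841797-170841803, minus strand: cugaggaguugGAUUUGUugucuaguucu

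Canx carried the most signal, with 6 windows in its 3′ UTR covered by 46 to 265 reads and a summed coverage of 945 of the members' 1852 reads, which placed it 59th among 1431 genes with a window. Neighboring windows can share reads, so sums may count a read more than once. Cebpb had 4 windows with 10 to 88 reads, Dnajb9 3 with 15 to 160, Hsp90b1 3 with 47 to 57, and Calr 1 with 120. Atf4, with 26 reads, Pdia6 with 13, Herpud1 with 12 and Atf6 with 8 were thinly covered. The members held 0.0716% of all listed coverage, a total that the study attributes mostly to the small noncoding RNA Y3. By window, the median coverage was 52.5 reads on members and 28 over all windows, not scaled to RNA level.

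Deletions, which reverse transcription leaves at crosslinked nucleotides, were most frequent relative to coverage in other members. The Derl2 window had a deletion in 26 of 26 covering reads, and the second window of Ppp1r15b, the constitutive eIF2 phosphatase subunit, in 11 of 11. Its first window had 44 deletions in 85 reads. Of all 2868 windows, 91 had a deletion in every covering read. The median share of reads with a deletion was 10.1% over the member windows and 17.9% over all windows, and in the 265 reads of the top Canx window it was 4.53%. By the authors' combined p-value, which is not adjusted, 9 windows on 5 members were under 0.05. The share of all windows under it is not given here, so this count cannot be read as high or low.

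**Figure D5:**
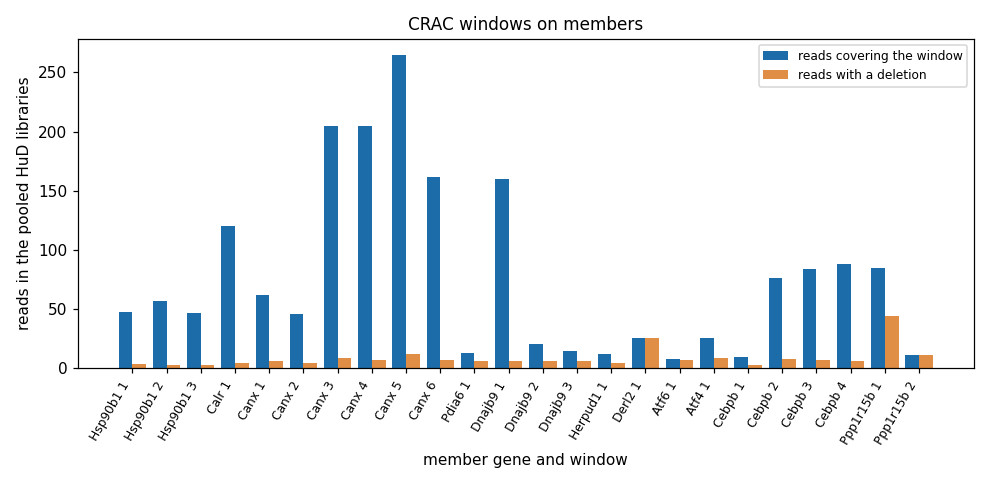
Bars give for each CRAC window on a member (x axis, numbered along the genome within a gene) the reads covering it (blue) and those with a deletion (orange) in the pooled HuD libraries; the axis starts at 0. The tallest bars are those of Canx, up to 265 reads, and the 2 bars are equal for Derl2 (26) and the second window of Ppp1r15b (11).

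Members with and without a window were set side by side for their differences with HuD. The 11 with a window had a median log2 difference of 0.01 in total RNA and 0 in polysomal RNA, with ranges of -0.20 to 0.40 and -0.40 to 0.48. The 24 without had -0.01 and 0.03, with ranges of -0.29 to 0.38 and -0.44 to 0.55. For TE the medians were -0.03 and 0. Without polysomal control replicate 2 the medians with and without a window were 0.05 and 0.03 in polysomal RNA and 0.01 and 0.04 for TE. Canx itself measured 582 and 736 CPM in total control, 625 and 626 in total HuD, 680 and 971 in polysomal control, and 693 and 740.2 in polysomal HuD libraries, with differences of -0.07 ± 0.17 and -0.20 ± 0.17, the latter 0.08 ± 0.12 without polysomal control replicate 2. Ppp1r15b measured 178 and 191 CPM in total control and 186 and 198 CPM in total HuD libraries (0.06 ± 0.10).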

How the data were processed

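Total RNA, polysomal RNA, 3′ ends and HuD-crosslinked sites of NSC-34 cells were analyzed. For each gene and each 3′ end, the values the authors deposited are read counts without normalization (STAR 2.5.3a, GRCm38.p4, Gencode M6). For CRAC (TopHat2 2.0.14) the authors deposited coverage signal and deletion counts per window, pooled over replicates after a penalty for control reads, with a combined p-value and a motif score, which was not used. Total CRAC reads were not used, so no depth stands behind the coverage. The members, gene lists and role groups were chosen with earlier results of these data known.

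Repeated lines of a 3′ end were reduced to the highest count, which left 14536 ends, 16 of them with unequal counts between lines. Tests used edgeR 4.0.16 under R 4.3.3 (TMM, filterByExpr, glmQLFTest, Benjamini-Hochberg at 0.05 over all genes), with all 8 RNA-Seq and POL-Seq libraries in 1 fit, and diffSpliceDGE for end usage. The procedure was tested on simulated data. Alternatives were DESeq2 1.42.0, other scaling, no filter, a replicate block, fits to a comparison's own libraries, merged ends within 20 nt (chosen after seeing the data) and leaving out each library. CPM are TMM-scaled, and CPM per kb used GENCODE vM21 exons. Python 3.11.15 and pandas 2.3.3 made the summaries.

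Window positions are where the listed sequence was found in GENCODE vM21 transcripts, which differed from the listed start by 1 nt for 1419 windows on the plus strand and 2 nt for 1384 on the minus strand, of 2804 placed. Genes given in full were members called, or the 5 with the smallest p, in a comparison, the 5 highest and 5 lowest polysomal ratios, members with a window, the 3 with the smallest p for end usage and the core genes Hspa5, Xbp1, Atf4, Atf6, Ern1, Ddit3, Ppp1r15a and Atf3. In the 3′ end set, control and HuD libraries that share a number had correlated deviations across genes (r of 0.400, 0.657 and 0.515), and 6 of 6 libraries correlated best with their own number, so the numbers were taken as pairs from the data, since the labels give no source of pairing.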

Additional observations from a re-analysis of the deposited data

How the results depend on the processing

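The number of members at an adjusted p under 0.05 was 0 in every comparison under other scaling, no filter, DESeq2, the replicate block, fits to the comparison's own libraries and, for 3′ ends, merged ends. Leaving out 1 library gave 0 to 7 in polysomal RNA, 0 to 10 for polysomal against total RNA in control cells and 0 in the others, and the highest values arose without polysomal control replicate 1, which leaves 1 library in that group. In the same leave-outs the fitted TE difference ran from -0.61 to 0.01 for Hsp90b1 and from -0.45 to 0.02 for Pdia3, above 0 without polysomal control replicate 2, and the cause was not tested. The replicate block in RNA-Seq and POL-Seq rests on 2 numbers that the labels do not tie to a shared culture, and it moved the members at an unadjusted p under 0.05 to 8 higher and 2 lower in total RNA and 9 and 7 in polysomal RNA, while over all 14906 genes the counts went from 265 and 129 to 533 and 385 and from 341 and 281 to 643 and 743. Restricting CRAC to windows with the authors' p under 0.05 left 5 members in place of 11, with no such count over all genes given here. Cebpb, below 10 CPM in total and polysomal RNA, had the lowest level per kb of the members, with an SE of 0.18 in both.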
